A study of Homo sapiens with 8 samples.

Results

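The Kruppel-like factors examined here are KLF2, KLF3, KLF4, KLF6, KLF7, KLF9, KLF10, KLF12 and KLF13. They were measured by 36 of the 54675 probe sets of an Affymetrix HG-U133 Plus 2.0 array, namely every probe set whose single gene symbol in the platform annotation is 1 of these 9 genes. KLF10 had 1 probe set, KLF2 and KLF4 had 2 each, KLF3 and KLF13 had 4 each, KLF6, KLF7 and KLF9 had 5 each, and KLF12 had 8. The study asked what inhibition of EZH2 does in human lines described as acute lymphoblastic leukaemia. Cells of 2 lines, SUP-B8 and NALM-6, received either DMSO as vehicle or 0.5 uM GSK126 over 72 hours, and each of the 4 groups had 2 arrays, labelled as biological replicates. GSK126 blocks the enzymatic activity of EZH2, the catalytic subunit of a Polycomb repressive complex, which silences genes by methylating histone H3. The series' title names a variant of EZH2, and the sample labels do not say which EZH2 allele either line carries. Each line is a single cell line, so a difference between lines is a difference between these cultures and not between classes of leukaemia. RNA came from whole cultures, in which fewer expressing cells and less RNA per cell cannot be told apart.

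Kruppel-like factors are transcription factors that bind GC boxes and CACCC boxes through zinc fingers at their carboxyl end. Their amino-terminal parts differ and recruit either activators or corepressors, so members that bind like sequences can act in opposite ways. In lymphocytes KLF2 keeps resting cells quiescent and directs their migration, KLF4 restrains proliferation, and KLF3 and KLF12 repress through the CtBP corepressors. KLF10 and KLF13 can repress through SIN3A, KLF10 is an early transcript of TGF-beta signalling, and KLF9 is induced by glucocorticoid and thyroid hormone receptors. KLF6 is a widely expressed member, with KLF7 as its closest relative.

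Promoter sequences were matched by symbol in a RefSeq table (GRCh38.p14) for 7 of the 9 genes, and 5 of these have 1 listed start. The 250 bases before that start are shown for KLF2, KLF6, KLF9 and KLF13, because these genes changed with GSK126 in the results that follow and their promoters differ widely in composition. Sequences read 5′ to 3′ on the gene's strand. Capitals mark GGGCGG or CACCC on either strand, the boxes that Kruppel-like and SP factors bind, and in KLF2 also a MEF2 site. Overlapping matches are joined.
KLF2, chr19:16324576-16324825, plus strand: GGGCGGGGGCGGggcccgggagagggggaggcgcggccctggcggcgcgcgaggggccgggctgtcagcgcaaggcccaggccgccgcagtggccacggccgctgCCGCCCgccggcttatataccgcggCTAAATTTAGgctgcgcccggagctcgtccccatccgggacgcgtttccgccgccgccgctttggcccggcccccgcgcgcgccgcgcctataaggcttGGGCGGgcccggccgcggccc
KLF6, chr10:3785210-3785459, minus strand: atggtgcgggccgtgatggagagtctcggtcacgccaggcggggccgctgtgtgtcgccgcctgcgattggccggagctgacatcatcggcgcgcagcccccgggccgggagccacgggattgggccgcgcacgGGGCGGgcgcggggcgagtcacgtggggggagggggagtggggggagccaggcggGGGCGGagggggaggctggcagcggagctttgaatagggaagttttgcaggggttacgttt
KLF9, chr9:70414658-70414907, minus strand: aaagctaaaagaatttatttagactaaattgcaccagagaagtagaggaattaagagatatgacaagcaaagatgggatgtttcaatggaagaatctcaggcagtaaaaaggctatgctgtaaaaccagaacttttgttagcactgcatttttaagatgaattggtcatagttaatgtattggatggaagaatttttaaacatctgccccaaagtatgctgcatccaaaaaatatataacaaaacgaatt
KLF13, chr15:31326585-31326834, plus strand: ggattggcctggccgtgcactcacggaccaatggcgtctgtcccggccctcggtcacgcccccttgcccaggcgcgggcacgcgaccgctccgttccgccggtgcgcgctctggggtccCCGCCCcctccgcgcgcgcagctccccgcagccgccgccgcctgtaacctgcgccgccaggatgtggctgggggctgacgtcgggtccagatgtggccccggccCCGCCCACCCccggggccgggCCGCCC

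The KLF2 window held 41 CpG dinucleotides and 80.0% G or C, the KLF13 window 34 and 78.8%, and the KLF6 window 28 and 72.4%. The KLF9 window held 1 CpG and 32.4% G or C. Over the 35116 promoter windows of the table the median was 11 CpG (quartiles 3 and 23). GGGCGG matched 4 times in KLF2, 2 times in KLF6, 3 times in KLF13 and 0 times in KLF9, and 42.6% of all windows held at least 1 match. CACCC matched once in KLF13 and in 54.7% of all windows. The MEF2 site in KLF2 lies 120 to 111 bases before the start, and 2.80% of all windows held such a site. MEF2 factors, which the kinase ERK5 activates, are known inducers of KLF2 and KLF4. These matches describe the letters in the windows, since binding and histone methylation were not measured on these arrays.

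Values are log2 intensities as deposited, with array medians between 7.18 and 7.24. A probe set was tested where at least 2 of the 8 arrays lay above their own medians, which left 30164 probe sets in all and 25 of the 36 measuring Kruppel-like factors. Neither probe set of KLF4 passed, so 8 of the 9 genes were tested. Tests are limma on all 30164 probe sets with Benjamini-Hochberg adjustment over them, and a probe set is called at an adjusted p under 0.05. Differences are given ± SE of that fit and group means as mean ± SD with n = 2. A gene is represented by its probe set with the highest mean. Where a group's arrays all lay below their medians, only a lower bound of the difference, measured from those medians, is given ("at least"). Medians over probe sets use all fitted differences, those below the array medians included. Some probe sets passed the filter through the arrays of 1 line or 1 group only, and for these a difference from the other arrays follows in part from the filter.

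The labelled cell type was checked on marker genes. Of 8 B-lineage markers fixed for this purpose 7 had a probe set, and all 7, among them CD79A, PAX5 and EBF1, lay above the array medians in both lines. MS4A1, which encodes CD20, rose by 1.07 in SUP-B8 and fell by 0.95 in NALM-6 after GSK126 (adjusted p = 8.33e-04 and 1.80e-05). Of 6 precursor B-cell markers, DNTT, VPREB1, IGLL1 and RAG1 lay below the medians in the arrays labelled NALM-6. The others, MME and CD34, lay above them, at 10.60 and 7.79 under DMSO. In the arrays labelled SUP-B8 the group means under DMSO were 13.67 for DNTT, 13.35 for VPREB1, 13.31 for IGLL1 and 10.57 for RAG1. There MME was at 12.97 and CD34 at 8.24. Lack of the first 4 differs from the usual description of NALM-6, so directions by line are those of the labels. All 6 myeloid markers and 4 of 6 T-cell markers lay below the medians. The T-cell genes CD3D and CD3E had group means of 7.47 to 8.27 and the globin gene HBB of 7.73 to 8.002. Lying above the array median is therefore no proof that a transcript is present, which bears on KLF2 and KLF9 among the genes that changed.

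**Figure D1:**
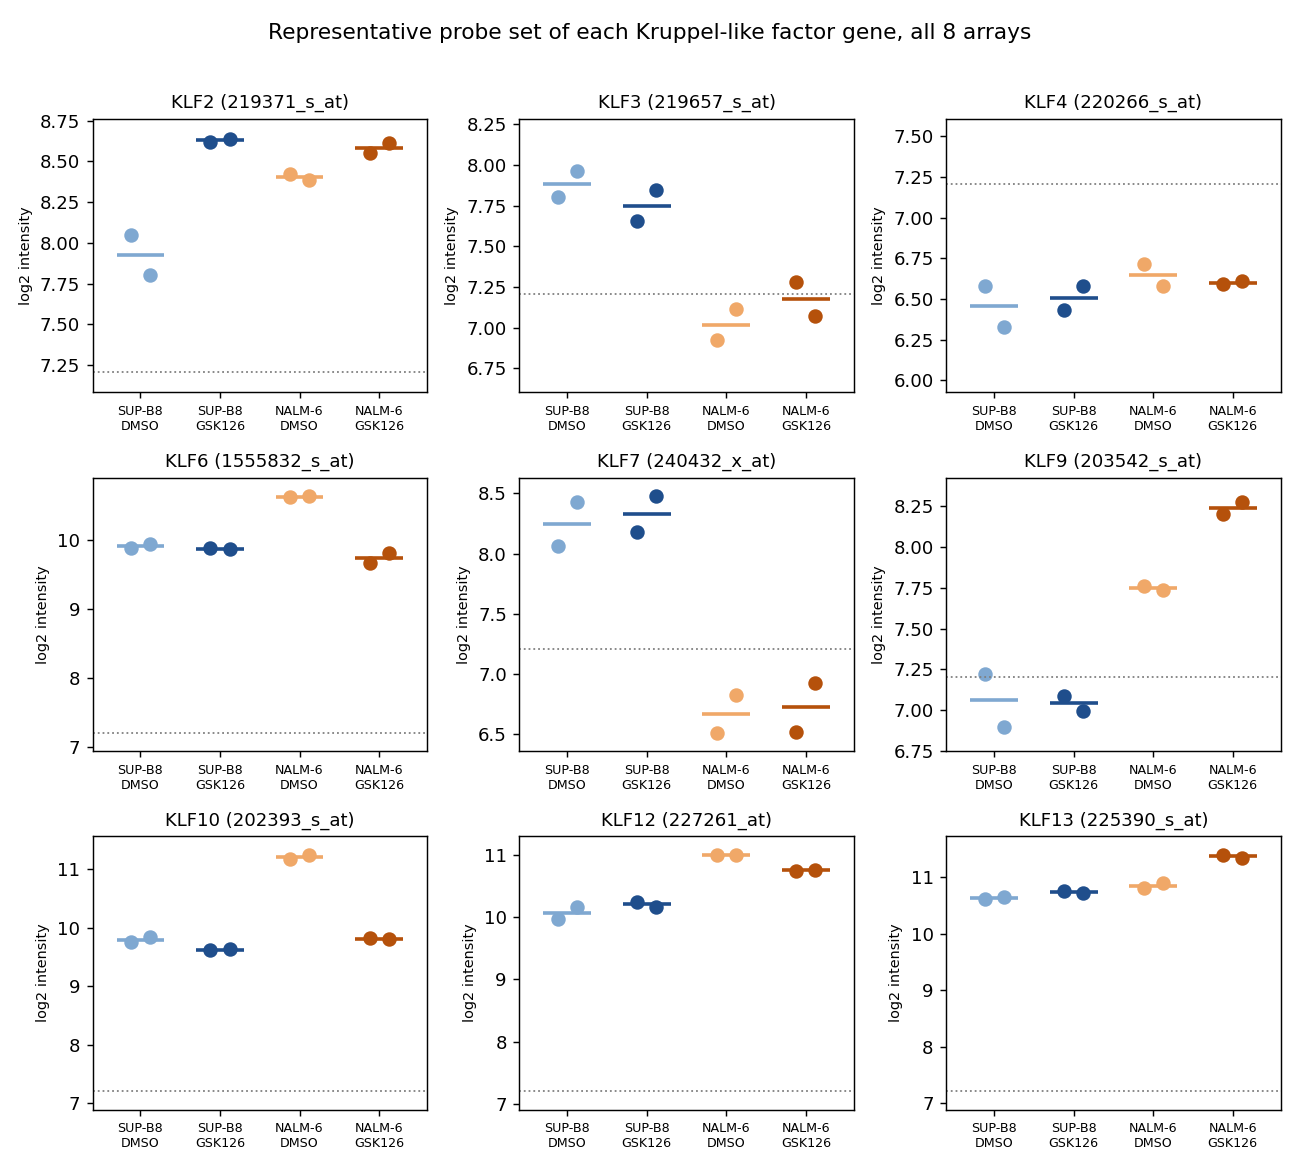
Each panel plots the deposited log2 intensity (y axis) of the probe set that represents a Kruppel-like factor gene in the 4 groups (x axis); points are single arrays, bars the mean of 2 arrays, the dotted line the mean of the array medians, and y ranges differ between panels. KLF6, KLF10 and KLF12 are highest in the NALM-6 DMSO arrays, KLF2 is lowest in the SUP-B8 DMSO arrays, and KLF4 lies below the dotted line on every array.

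In the arrays labelled NALM-6, GSK126 was followed by lower KLF6, KLF10 and KLF12 and by higher KLF9 and KLF13. KLF10 fell by 1.40 on the log2 scale, to a level 2.63-fold below that of the vehicle arrays. The representative probe sets of 5 of the 8 tested genes were called, 2 higher and 3 lower, where 37.8% of all 13161 genes were (20.1% higher and 17.7% lower), so calls were frequent throughout this comparison. Of the 25 probe sets 12 were called lower and 3 higher, against 39.3% called among all probe sets, 20.0% lower and 19.3% higher. The 12 belong to KLF12 (6, of which 238940_at passed the filter through its vehicle arrays alone), KLF6 (4), KLF10 (1) and KLF3 (1, with all NALM-6 arrays below their medians), and probe sets of a gene are not independent readings. The median over the 25 was -0.10, and over all probe sets tested it was 0.01.

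KLF10, the TGF-beta early transcript and repressor, had its only probe set, 202393_s_at, at 11.17 and 11.25 in the NALM-6 DMSO arrays and at 9.82 and 9.81 in the GSK126 arrays. In SUP-B8 it read 9.76 and 9.84 under DMSO and 9.61 and 9.64 under GSK126. The 2 vehicle arrays of NALM-6 stand above the other 6 arrays, and no NALM-6 array overlaps between treatments. The difference was -1.40 ± 0.06 in NALM-6 (adjusted p = 2.82e-06) and -0.17 ± 0.06 in SUP-B8 (adjusted p = 0.214). The response in SUP-B8 minus that in NALM-6 was 1.23 ± 0.08 (adjusted p = 6.82e-05).

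KLF6 showed the same arrangement of arrays. Its representative probe set, 1555832_s_at, read 10.63 and 10.65 in NALM-6 under DMSO and 9.68 and 9.82 under GSK126. In SUP-B8 the values were 9.89 and 9.94 under DMSO and 9.89 and 9.87 under GSK126. As with KLF10, the NALM-6 vehicle arrays are the highest and the other 6 lie close together. The difference in NALM-6 was -0.89 ± 0.06 (adjusted p = 2.50e-05), and 3 further probe sets, 208961_s_at, 224606_at and 208960_s_at, were called at -0.79, -0.94 and -0.90. In SUP-B8 these 4 probe sets differed by -0.05 to -0.02 and none was called, and the 95% interval for the representative ran from -0.17 to 0.11. The fifth probe set, 211610_at, stayed between 7.41 and 7.72 on all arrays and was not called in any comparison (-0.02 ± 0.11 in NALM-6). For each of the 4 called probe sets the responses also differed between the lines, by 0.75 to 0.89 (adjusted p from 2.41e-04 to 6.87e-04).

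KLF12, a repressor that binds CtBP, was called lower under GSK126 in NALM-6 on the 5 probe sets that passed the filter through more than 1 group. Its representative, 227261_at, read 11.001 and 10.99 under DMSO and 10.74 and 10.76 under GSK126, a small difference of -0.25 ± 0.07 (adjusted p = 0.0257). Other probe sets moved further: 214276_at went from 9.87 and 9.91 to 8.71 and 8.87, a difference of -1.10 ± 0.06 (adjusted p = 1.01e-05). For 208467_at the values were 8.65 and 8.76 under DMSO and 7.56 and 7.63 under GSK126, a difference of -1.11 ± 0.09 (adjusted p = 5.90e-05). In between lay 206966_s_at at -0.61 and 229881_at at -0.33, both called. Probe set 238940_at read 7.60 and 7.505 under DMSO and dropped below the medians under GSK126, a called fall of at least 0.32. It was tested only because its 2 NALM-6 vehicle arrays lay above their medians, so its fall follows in part from the filter and adds no support. The other two did not pass the filter: 239019_at read 7.08 and 7.30 under DMSO and 6.53 and 6.65 under GSK126, and 206965_at lay below the medians throughout. None of the 6 tested probe sets was called in SUP-B8. There 227261_at, 214276_at, 206966_s_at and 229881_at differed by 0.08 to 0.17, 208467_at read below the medians under DMSO and at least 0.14 higher under GSK126, and 238940_at lay below the medians in both groups. For the difference between the responses the first 4 were called, at 0.39 to 1.18. The other two were also called positive, and no size is given because of their SUP-B8 readings.

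These 5 probe sets of KLF12 thus share a direction in NALM-6 and differ in size, from -0.25 to -1.11. The call of the representative probe set was lost without any of the 4 NALM-6 arrays in turn (adjusted p from 0.0826 to 0.102) and without the filter on dim probe sets (adjusted p = 0.0556). The mean of all 8 probe sets gave -0.67 (adjusted p = 3.14e-05). It includes 238940_at, tested through its NALM-6 vehicle arrays alone, and 239019_at and 206965_at, which did not pass the filter. It is therefore no separate support. The calls of 214276_at, 206966_s_at and 208467_at held under every alternative run on them, and 229881_at lost its call in 1 omission, without NALM-6 GSK126 replicate 1 (adjusted p = 0.0525). Which exons each probe set reads was not analysed here.

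**Figure D2:**
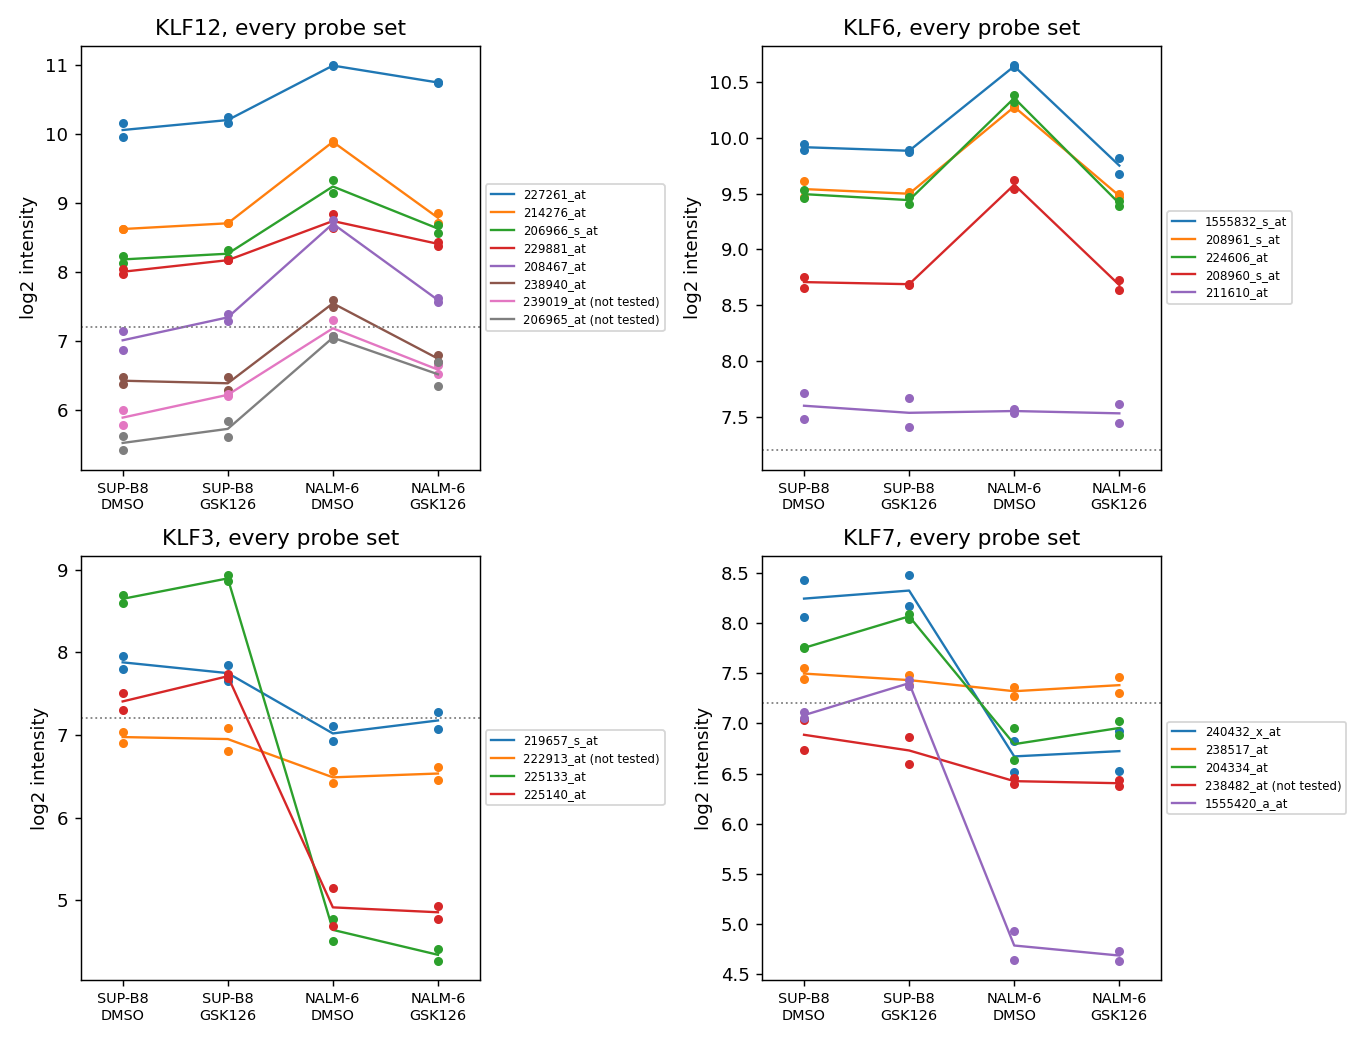
Log2 intensity (y axis) of every probe set of KLF12, KLF6, KLF3 and KLF7 in the 4 groups (x axis); points are single arrays, lines join group means of a probe set to guide the eye, and the dotted line is the mean of the array medians. All 8 KLF12 probe sets peak in NALM-6 DMSO arrays, 4 of 5 for KLF6 do, and for KLF3 and KLF7 the drop from SUP-B8 to NALM-6 differs strongly between probe sets.

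KLF9, the hormone-responsive member, was higher under GSK126 in NALM-6. Its representative, 203542_s_at, read 7.76 and 7.73 under DMSO and 8.204 and 8.28 under GSK126, a difference of 0.49 ± 0.10 (adjusted p = 0.00492). A second probe set, 203543_s_at, went from 7.37 and 7.23 to 8.11 and 7.96, a difference of 0.73 ± 0.08 (adjusted p = 2.80e-04). In each of these the treated arrays lie above the vehicle arrays. The third tested probe set, 203541_s_at, stayed between 7.06 and 7.40 on all arrays and was not called (-0.07 ± 0.09). In SUP-B8 203542_s_at read 7.22 and 6.90 under DMSO and 7.09 and 6.99 under GSK126, and 203543_s_at lay below the array medians throughout, so no response could be read there. The mean of all 5 KLF9 probe sets, 2 of them below the medians on all arrays, gave 0.25 in NALM-6 (adjusted p = 0.00298).

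KLF13, an activator of chemokine transcription in T cells, read 10.80 and 10.90 on 225390_s_at in NALM-6 under DMSO and 11.40 and 11.34 under GSK126. The difference was 0.52 ± 0.06 (adjusted p = 2.51e-04), a 1.43-fold rise. In SUP-B8 the values were 10.61 and 10.65 under DMSO and 10.76 and 10.72 under GSK126, a difference of 0.11 ± 0.06 (adjusted p = 0.420) with a 95% interval from -0.03 to 0.24. The response was smaller in SUP-B8 by 0.41 ± 0.08 (adjusted p = 0.00830). Of the 3 other probe sets, 219878_s_at differed by -0.01 ± 0.07 in NALM-6 and 2 lay below the medians on all arrays, and the mean of all 4 gave 0.12 and no call (adjusted p = 0.0867).

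**Figure D3:**
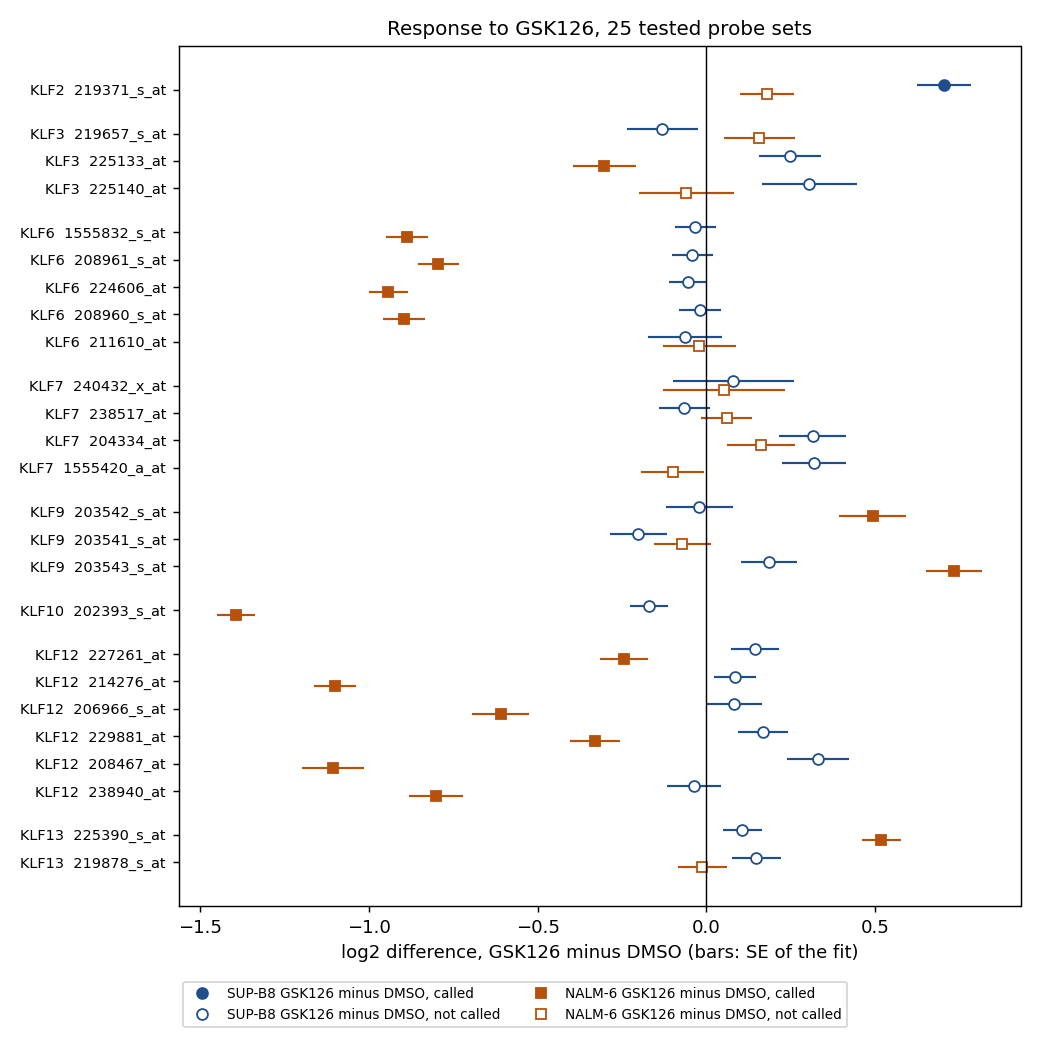
Log2 difference GSK126 minus DMSO (x axis) for the 25 tested probe sets, grouped by gene (y axis), in SUP-B8 (circles) and NALM-6 (squares); bars are the SE of the fit, filled symbols are called, and differences against arrays below their medians are drawn as measured. The 12 probe sets called lower and 3 called higher in NALM-6 contrast with 1 called in SUP-B8, KLF2 at 0.70.

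In the arrays labelled SUP-B8, KLF2 was the only tested gene of the 9 that was called after GSK126. KLF2, the quiescence and migration factor, read 8.05 and 7.80 on 219371_s_at under DMSO and 8.62 and 8.64 under GSK126. The difference was 0.70 ± 0.08 (adjusted p = 0.0118), a 1.63-fold rise with a 95% interval from 0.52 to 0.89 on the log2 scale. In NALM-6 the same probe set read 8.42 and 8.39 under DMSO and 8.55 and 8.62 under GSK126. The SUP-B8 vehicle arrays are thus the low ones, and both SUP-B8 treated arrays read at or above the NALM-6 treated arrays. The difference in NALM-6 was 0.18 ± 0.08 (adjusted p = 0.111, or 0.0318 without either SUP-B8 DMSO array), and the response was larger in SUP-B8 by 0.52 ± 0.11 (adjusted p = 0.0117).

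The count of 1 called probe set in 25 compares with 1.16% of all probe sets called in SUP-B8 (1.02% higher and 0.139% lower), and 1 gene in 8 with 1.34% of all genes (1.22% higher and 0.122% lower). The KLF2 call was lost without SUP-B8 GSK126 replicate 1 (0.715, adjusted p = 0.0671) or replicate 2 (0.69, adjusted p = 0.0543). Over the whole array fewer probe sets were called in SUP-B8 when any array of either line was left out. Why the KLF2 call was lost was not tested. Without SUP-B8 DMSO replicate 1 or replicate 2 the KLF2 difference was 0.83 and 0.58, and its call held. The second KLF2 probe set, 226646_at, lay between 6.79 and 6.98 on all arrays, below the medians, and so could not be tested. The mean of both gave 0.39 (adjusted p = 0.0107).

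The other tested genes gave 24 probe sets that were not called in SUP-B8, 6 of which had an unadjusted p under 0.05. The share of all probe sets at that p is not given here, so the 6 are no evidence of a shared response. KLF7, the relative of KLF6, was among them on 204334_at, which read 7.76 and 7.75 under DMSO and 8.04 and 8.09 under GSK126 (0.31 ± 0.10, adjusted p = 0.200). Its probe set 1555420_a_at read 7.11 and 7.05 under DMSO, below the medians, and 7.37 and 7.43 under GSK126, at least 0.20 higher but not called (adjusted p = 0.173). It was tested only because its 2 SUP-B8 GSK126 arrays lay above their medians, so this difference follows in part from the filter. The representative of KLF7, 240432_x_at, overlapped between treatments (8.06 and 8.43 against 8.18 and 8.48). For KLF3, 225133_at gave 0.25 ± 0.09, 225140_at 0.31 ± 0.14 and the representative 219657_s_at -0.13 ± 0.105, so its probe sets differed in sign. In total the arrays of the treatments did not overlap for 14 of the 25 probe sets in SUP-B8, where 47.7% of all probe sets did not. In NALM-6 this held for 16 of the 25, where 69.5% of all did not.

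KLF4, the proliferation-restraining member, was not shown to be above background in either line. Its probe set 220266_s_at read 6.58 and 6.33 in SUP-B8 DMSO, 6.43 and 6.58 in SUP-B8 GSK126, 6.71 and 6.58 in NALM-6 DMSO and 6.59 and 6.61 in NALM-6 GSK126. The second, 221841_s_at, lay between 4.39 and 4.77 on all arrays. When all probe sets were tested without a filter, 221841_s_at was called lower in NALM-6 (adjusted p = 0.00428), and no size is given because both groups lie below the medians.

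The lines were also compared without the inhibitor. KLF3 and KLF7 were higher in SUP-B8, and KLF2, KLF6, KLF9, KLF10, KLF12 and KLF13 were higher in NALM-6. All 8 representative probe sets were called, where 67.3% of all genes were. Of these 2 were higher and 6 lower in SUP-B8, where 37.2% and 30.1% of all genes were. The 2 are KLF3 and KLF7, whose representatives passed the filter mainly (KLF3) or only (KLF7) through the SUP-B8 arrays, so these calls follow in part from the filter. By probe set, 16 of 25 were lower and 6 higher in SUP-B8 (31.9% and 36.0% of all, 67.8% together), with a median of -0.69 against 0.02 for all probe sets tested. The 16 include 6 of KLF12 and 4 of KLF6, and probe sets of a gene are not independent readings, so the median is no shift of the family. The 6 higher belong to KLF3 and KLF7. Of the 16, 203543_s_at, 219878_s_at and 238940_at passed the filter through NALM-6 arrays alone. The 3 that were not called were 211610_at of KLF6, 238517_at of KLF7 and 203541_s_at of KLF9, which were also called in neither response. Arrays of the lines did not overlap for 23 of the 25, where 81.6% of all did not. This comparison uses the same NALM-6 vehicle arrays as the response in NALM-6, so the 2 sets of values are given side by side only.

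KLF3, a CtBP-dependent repressor, was higher in SUP-B8 on each of its 3 tested probe sets. Probe set 225133_at read 8.70 and 8.60 in SUP-B8 DMSO and 4.51 and 4.77 in NALM-6 DMSO, and 225140_at read 7.30 and 7.51 against 4.68 and 5.14. The NALM-6 values lie below the medians, so the differences are at least 1.45 and at least 0.21. The representative, 219657_s_at, read 7.80 and 7.96 against 6.93 and 7.11, at least 0.68 higher in SUP-B8 (adjusted p = 9.45e-05). KLF7 followed the same order: 240432_x_at read 8.06 and 8.43 in SUP-B8 and 6.52 and 6.83 in NALM-6, at least 1.051 higher (adjusted p = 6.17e-05). Its probe set 204334_at was at least 0.56 higher, and for 1555420_a_at (7.11 and 7.05 against 4.93 and 4.63) both groups lay below the medians. These KLF3 and KLF7 probe sets passed the filter mainly or only through the SUP-B8 arrays.

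For KLF10 the difference between SUP-B8 and NALM-6 under DMSO was -1.41 ± 0.06 (adjusted p = 8.44e-08). For the KLF6 representative it was -0.72 ± 0.06 (adjusted p = 9.46e-06) and for that of KLF12 -0.93 ± 0.07 (adjusted p = 4.56e-06). KLF12 reached -1.26 ± 0.06 on 214276_at, and on 208467_at it was lower in SUP-B8 by at least 1.501. KLF2 differed by -0.48 ± 0.08 and KLF13 by -0.22 ± 0.06 (adjusted p = 6.46e-04 and 0.00931), and the mean of the KLF2 probe sets gave -0.22. KLF9 differed by -0.69 ± 0.10 (adjusted p = 2.70e-04), although 1 of its 2 SUP-B8 arrays lay below the array median. The KLF13 difference is the smallest of the 8 and its call was lost without NALM-6 DMSO replicate 2 (-0.17, adjusted p = 0.0580).

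Under GSK126 the lines were not called different for KLF2 and KLF6, and the called differences of the other 6 tested genes kept the direction they had under DMSO. This comparison was added after the values were seen and shares no array with the one under DMSO. KLF2 averaged 8.63 ± 0.01 in SUP-B8 and 8.58 ± 0.05 in NALM-6, a difference of 0.05 ± 0.08 with a 95% interval from -0.14 to 0.23. The KLF6 representative differed by 0.13 ± 0.06 (adjusted p = 0.0903, interval from -0.01 to 0.27), and its 3 other responsive probe sets by 0.01 to 0.03. For KLF10 the difference was -0.19 ± 0.06 (adjusted p = 0.0165), beside -1.41 under DMSO. The KLF12 representative gave -0.54 ± 0.07 (adjusted p = 1.61e-04). Its probe set 214276_at gave -0.08 ± 0.06 and was not called (adjusted p = 0.293), beside -1.26 under DMSO. Smaller called differences were seen on 206966_s_at (-0.36), 208467_at (-0.25) and 229881_at (-0.24).

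KLF9 was lower in SUP-B8 by at least 1.049 on 203542_s_at (adjusted p = 8.57e-06). The KLF13 representative gave -0.63 ± 0.06 (adjusted p = 1.69e-05), beside -0.22 under DMSO. Its probe set 219878_s_at, below the medians in SUP-B8, was lower there by at least 0.17 under each treatment, and the mean of the 4 KLF13 probe sets gave -0.28 under GSK126. That probe set passed the filter through the NALM-6 arrays alone, so its difference follows in part from the filter. KLF3 and KLF7 remained higher in SUP-B8, 225133_at by at least 1.67 and 240432_x_at by at least 1.10. Both probe sets passed the filter through the SUP-B8 arrays alone, so these differences follow in part from the filter. In all, 6 probe sets were higher and 10 lower of 25, where 34.0% and 32.6% of all probe sets were (66.6% together). The 6 belong to KLF3 and KLF7 and passed the filter mainly or only through the SUP-B8 arrays. Of the 10, 203543_s_at, 219878_s_at and 238940_at passed through NALM-6 arrays alone. Probe sets of a gene are not independent readings. Of the 8 genes 2 were higher and 4 lower, where 34.6% and 32.1% of all genes were (66.7% together). Arrays did not overlap for 20 of the 25, where 84.3% of all did not. The KLF10 call under GSK126 was lost without any of the 4 GSK126 arrays in turn (adjusted p from 0.0509 to 0.0838) and with each array centred on its median (adjusted p = 0.0747). For the KLF6 representative the same centring gave a call, at 0.17 (adjusted p = 0.0499), as did leaving out NALM-6 GSK126 replicate 2, at 0.20 (adjusted p = 0.0376).

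**Figure D4:**
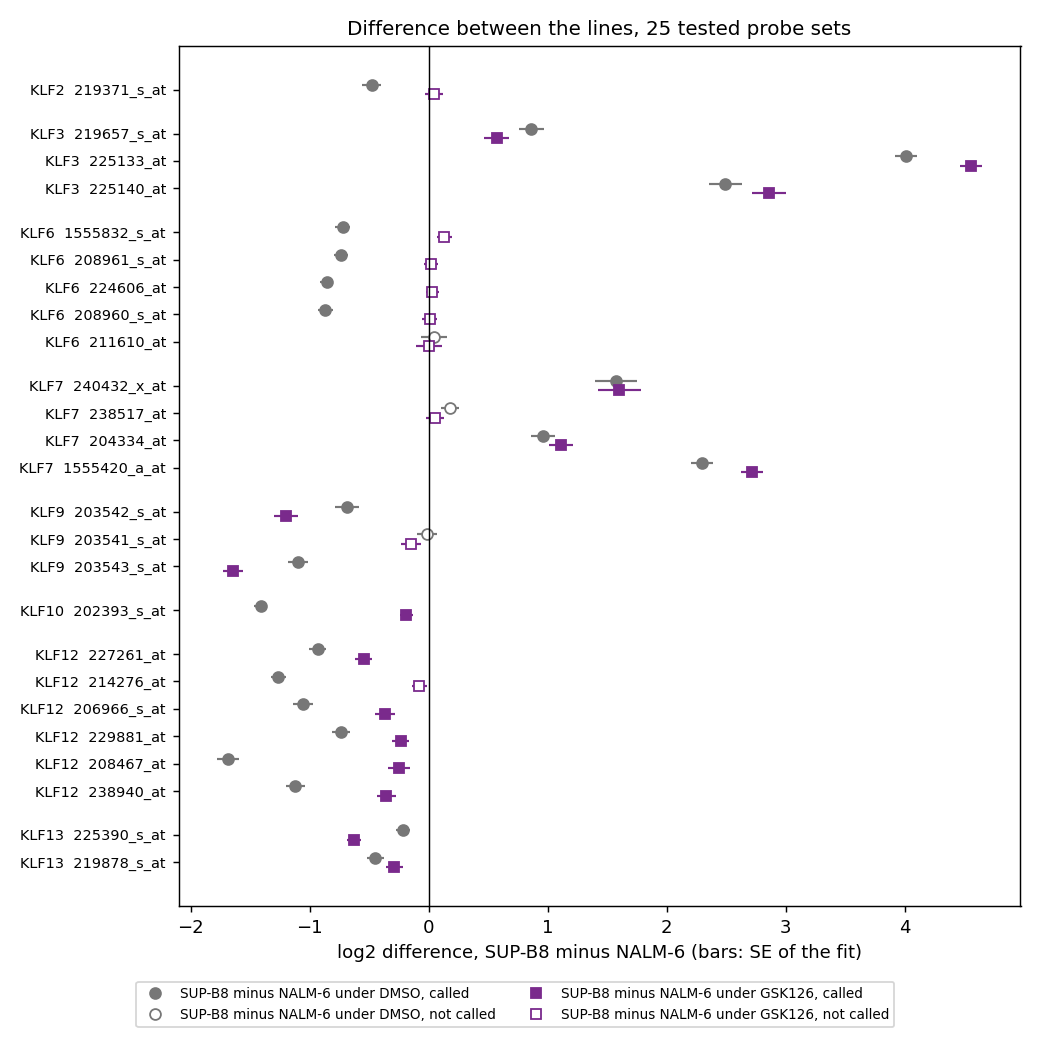
Log2 difference SUP-B8 minus NALM-6 (x axis) under DMSO (circles) and under GSK126 (squares) for the 25 tested probe sets, grouped by gene (y axis); bars are the SE of the fit, filled symbols are called, and differences against arrays below their medians are drawn as measured. The squares of KLF6 lie near 0, those of KLF10 and KLF12 lie nearer to 0 than the circles, and those of KLF9 lie further from 0 on the 2 called probe sets.

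The difference between the responses, SUP-B8 minus NALM-6, was called for 6 of the 8 genes, where 23.6% of all genes were (10.2% positive and 13.4% negative). It was positive for KLF2 (0.52), KLF6 (0.86), KLF10 (1.23) and KLF12 (0.39) and negative for KLF13 (-0.41). It was also called negative for KLF9, with no size given because 3 of the 4 SUP-B8 arrays lay below their medians. By probe set, 13 of 25 were positive and 3 negative, where 11.9% and 12.6% of all were (24.5% together). The 13 include 6 of KLF12 and 4 of KLF6, and probe sets of a gene are not independent readings. Some had readings below the array medians in 1 line, 208467_at, 238940_at and 225133_at among the positive and both of KLF9 among the negative. The test of the difference between the responses uses all 4 groups, so it shares arrays with each comparison above. The KLF3 and KLF7 representatives were not called, and their NALM-6 readings lay below the medians under DMSO. The KLF12 call was lost without SUP-B8 GSK126 replicate 1 or any NALM-6 array (adjusted p from 0.0598 to 0.0813) and that of KLF9 without SUP-B8 GSK126 replicate 2 or any NALM-6 array (adjusted p from 0.0583 to 0.0901). Both were also lost without the filter on dim probe sets (adjusted p = 0.0556 and 0.0554). With the mean of all probe sets of a gene the difference was 0.28 for KLF2, 0.83 for KLF12 and -0.25 for KLF9, all called, and -0.06 for KLF13, not called (adjusted p = 0.557). Each of these means includes readings below the array medians in SUP-B8, so none is a size of a difference between responses.

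Genes of the pathways around these factors were taken from 7 lists. Of all genes tested, 20.1% were called higher and 17.7% lower in NALM-6, and 1.34% were called in SUP-B8. The other KLF and SP factors, which bind the same boxes, had 8 of 16 genes tested, and SP2 (-0.30 ± 0.07) and SP3 (-0.31 ± 0.06) were called lower in NALM-6 after GSK126 with 0 higher. In SUP-B8 none of the 8 was called. KLF5 and KLF15 had the largest differences there, at 0.24 ± 0.06 and 0.20 ± 0.12. Under DMSO 3 of the 8 were called higher and 3 lower in SUP-B8 than in NALM-6, where 37.2% and 30.1% of all genes were. KLF16 had the largest of these differences (0.76 ± 0.06). The list's median was -0.04 in SUP-B8 and -0.00 in NALM-6, and that of all genes tested -0.02 and 0.02. The route from ERK5, MEF2 and FOXO factors to KLF2 and KLF4 had 9 tested genes, of which 3 rose and 2 fell in NALM-6. MEF2C, a B-cell MEF2 factor, fell by 0.67 (SE 0.05; adjusted p = 4.27e-05), MAP3K3 rose by 0.31 ± 0.07, FOXO3 rose by 0.26 ± 0.06 and MAP3K2 fell by 0.19 (SE 0.05). In SUP-B8 MEF2C differed by -0.05 ± 0.05 and none of the 9 was called, where 1.34% of all genes were. The arrays do not read the activity of these proteins, and a link to KLF2 was not tested. The list's median was -0.02 in SUP-B8 and 0.05 in NALM-6.

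The glucocorticoid receptor and TGF-beta route to KLF9 and KLF10 had 11 tested genes. In SUP-B8 3 of them rose and 0 fell, where 1.34% of all genes were called, namely the type I TGF-beta receptor TGFBR1 (0.62 ± 0.06, adjusted p = 0.00828), the inhibitory SMAD7 (0.49 ± 0.07, adjusted p = 0.0199) and TSC22D3 (0.38 ± 0.07, adjusted p = 0.0407), a glucocorticoid-induced gene. In NALM-6 3 rose and 5 fell, where 37.8% of all genes were called: TSC22D3 rose by 1.63 ± 0.07, TGFBR1 rose by 0.45 ± 0.06, the type II receptor TGFBR2 fell by 0.85 (SE 0.05), and the glucocorticoid receptor NR3C1 fell by 0.34 (SE 0.05). FKBP5, another glucocorticoid-induced gene, was not called in either line (0.01 ± 0.06 in each). The list's median was 0.00 in SUP-B8 and -0.00 in NALM-6.

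Of 10 tested corepressors used by these factors 2 rose and 3 fell in NALM-6, where 20.1% and 17.7% of all genes did. The KLF3 partner FHL3 was at 0.48 ± 0.06 and the deacetylase HDAC1 at -0.39 ± 0.06. RCOR1 was at -0.30 ± 0.06 and CTBP1 at -0.26 ± 0.05. The median of the list was -0.02 in SUP-B8 and -0.07 in NALM-6. Under DMSO 6 of the 10 were called higher and 3 lower in SUP-B8 than in NALM-6, where 37.2% and 30.1% of all genes were. The lower ones were HDAC1 (-0.48), SAP30 (-0.23) and HDAC3 (-0.22). Among the higher ones RCOR1 differed by 0.80, SIN3B by 0.75 and CTBP1 by 0.57. CTBP2 was called higher as well (adjusted p = 6.40e-08), at 11.84 ± 0.19 in SUP-B8 against 7.08 ± 0.42 in NALM-6 (mean ± SD, n = 2), and no size is given because the NALM-6 mean is below the array medians. Of 6 ubiquitin ligases of KLF proteins, BTRC rose in NALM-6 (0.55 ± 0.06) and the others were not called, with a median of 0.03 in SUP-B8 and 0.07 in NALM-6. KLF2-linked trafficking genes fell in 4 and rose in 1 of 8 in NALM-6, where 17.7% of all genes fell and 20.1% rose. The activation marker CD69 fell by 1.04 (SE 0.09), the complement receptor CR2 fell by 0.52 (SE 0.06), CXCR3 dropped below the medians, a fall of at least 0.085, and the sphingosine phosphate receptor S1PR4 rose by 0.76 ± 0.07. In SUP-B8 none of these 8 was called, CR2 lay below the medians and CD69 differed by 0.145 ± 0.09. The list's median was -0.04 in SUP-B8 and -0.21 in NALM-6.

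KLF-linked cell-cycle genes rose in 3 and fell in 3 of 10 tested in NALM-6, with CCNE1 at 0.68 ± 0.06, MYC at 0.60 ± 0.05, CCNB1 at -0.44 ± 0.05 and CDKN1A at 0.37 ± 0.05, and 0 were called in SUP-B8. Its median was -0.02 in SUP-B8 and -0.01 in NALM-6. Over all 7 lists limma called 3 of 62 genes in SUP-B8, where 1.34% of all genes were called, and all 3 belong to the glucocorticoid and TGF-beta list. The other 6 lists had 0 calls there among 51 genes. Of these, 8 had an unadjusted p under 0.05, and the share of all genes at that p is not given here. In NALM-6 13 of the 62 were called higher and 19 lower, where 20.1% and 17.7% of all genes were.

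The genes whose representative probe sets varied most like those of the responding members were found by Pearson correlation over the 8 arrays, after each line's mean was removed. With 4 groups of 2 arrays such values mainly record which groups are high or low and are given as descriptions. CD96 (r = 0.991), LOC105377134 (0.979) and CAST (0.978) were nearest to KLF2. CD274, which encodes PD-L1, LRRK1 and PTPN6 were nearest to KLF6 (r = 0.999 each). STAM, CKAP5 and VCPKMT were nearest to KLF10 (r = 0.999 each), and CD274 and VCPKMT fell by 1.68 and 1.44 in NALM-6. ENTPD7, TYMP and POU2F2 were nearest to KLF9 (r = 0.983 to 0.994), KIZ, EEIG2 and SLC25A43 to KLF13 (r = 0.997 to 0.999), and CEP55, CDKN3 and LDAH to KLF12 (r = 0.982 to 0.984).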

How the data were processed

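RNA from 8 cultures was measured on Affymetrix HG-U133 Plus 2.0 arrays. The deposited table holds a log2 intensity per probe set and array, taken as already normalized between arrays by the authors because the array medians are nearly equal; the unit was likewise read from the values. MAS5 and RMA are named in the submitters' processing notes, and their role, versions and a genome build are not given in the sources used here. Normalization between arrays would hide a change shared by most transcripts, and precision is limited by the small number of arrays. No detection calls were used.

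Of 54675 probe sets, 41097 had 1 symbol in the platform annotation, 1801 several and 11777 none listed. The fit was limma 3.58.1 in R 4.3.3 with a mean per group over all 8 arrays, without the 62 control probe sets. Python 3.11.15 prepared the tables. The procedure was tested on simulated data. All member probe sets are named; from each list up to 4 called genes of largest difference, or up to 2 where none was called, could be named, and the 3 genes most like each responding member. Some further list values were chosen after they were seen. Members and lists were chosen with earlier results of these data known.

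Same-numbered arrays did not deviate together (r = -0.005 in SUP-B8 and 0.008 in NALM-6 over the tested probe sets), and the labels state no pairing. Replicates correlated at r = 0.998 over all probe sets. Alternatives covered the filter, normalization, variance prior, a replicate block, the arrays in the fit, the probe sets per gene and each array left out. With 2 arrays against 2, the p-values rest on the model's shared variance.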

Additional observations from a re-analysis of the deposited data

Results flagged for a closer look

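The response to GSK126 differed between the lines, by limma on the difference of the responses (SUP-B8 minus NALM-6), for 16 probe sets of Kruppel-like factors. KLF12 gave 0.39 on 227261_at, 1.18 on 214276_at, 0.69 on 206966_s_at, 0.50 on 229881_at. On 208467_at and 238940_at the fitted values were 1.44 and 0.76. The first lay below the array medians in SUP-B8 under DMSO and the second in every group but NALM-6 DMSO, through which alone it was tested, so these are not sizes of a response. KLF6 gave 0.86 on 1555832_s_at, 0.75 on 208961_s_at, 0.89 on 224606_at and 0.88 on 208960_s_at. KLF10 gave 1.23 and KLF2 gave 0.52. KLF3 gave 0.55 on 225133_at, although in NALM-6 that probe set lay below the array medians, so that value is no size either. KLF13 gave -0.41 on 225390_s_at. For KLF9 the fitted values were -0.51 on 203542_s_at and -0.55 on 203543_s_at. In SUP-B8, 203543_s_at lay below the array medians on all 4 arrays and 203542_s_at on 3 of them, so no response could be read there and these are not sizes of a difference between responses.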

How the results depend on the processing

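Leaving out each array in turn gave 0 to 1 called genes and 0 to 1 called probe sets in SUP-B8. It gave 4 to 6 and 12 to 16 in NALM-6, 4 to 6 and 13 to 16 for the difference of the responses, 7 to 8 and 21 to 22 between lines under DMSO, and 5 to 6 and 12 to 16 under GSK126. The count of 0 came without either SUP-B8 GSK126 array, and the cause was not tested. Every other alternative kept each count within 1.5 times its value. With a replicate block the counts were 1, 5, 6, 8 and 6 genes and 1, 15, 16, 22 and 15 probe sets, in the order above. Same-numbered arrays share only a number. Over the whole array, limma called 350 probe sets in SUP-B8, 181 without the filter, 1198 with a trended robust prior and 155 with only the arrays of the comparison. Reversals were limited to differences that were not called. With the mean of its probe sets KLF3 gave 0.10 in SUP-B8, -0.0395 in NALM-6 and 0.14 for the difference of the responses. With arrays left out KLF7 ran from -0.10 to 0.26 in SUP-B8, from -0.15 to 0.25 in NALM-6 and from -0.17 to 0.23 for the difference, and KLF9 from -0.18 to 0.14 in SUP-B8. The KLF10, KLF6 and KLF13 representatives and 203542_s_at of KLF9 kept their calls in NALM-6 under every probe-set-level alternative. The KLF7 values in NALM-6 and those of KLF9 in SUP-B8 come mostly from arrays below their medians, and gene-level alternatives give no count of probe sets.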
